A study of Homo sapiens with 4 samples.

Results

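RNA-seq libraries of HEK-293 cells that received the siRNA si4 (1 library) or si5 (1 library) were compared with each other, both designed against the zinc finger gene ZSCAN5A. A gene entered the comparison when its FPKM (fragments scaled to transcript length and to library size) was at least 1 in either library and above 0 in both, which 12800 of the 24934 rows of the deposited table did. HEK-293 is an established line derived from human embryonic kidney, and the siRNAs were given at 10 nM with Lipofectamine RNAiMAX and left for 48 h. The series holds 4 libraries, 1 per treatment, and the other two, from a siRNA against ZSCAN5B (si1) and from a scrambled negative control siRNA, are used here for reference only. Because each siRNA has a single library, no difference has a replicate check, no test between the siRNAs was possible, and the effect of a siRNA cannot be told apart from the noise of its library. All values below are therefore levels and ratios of single libraries, given as si5 over si4.

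A siRNA is a short double-stranded RNA whose guide strand is loaded into an Argonaute protein and directs cleavage of transcripts that pair with it along their whole length. The same guide can also lower, more weakly, transcripts that pair only with its seed, the bases near its 5′ end, in the manner of a microRNA, and such pairing is known to act mostly in the 3′ UTR. Differences between siRNAs that share a target therefore carry their sequence-specific effects as well as unequal knockdown and library noise. ZSCAN5A belongs to a primate family of proteins that combine a SCAN domain, used for dimer formation, with C2H2 zinc fingers that bind DNA.

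The siRNAs target neighbouring stretches of the same exon, and their sequences are shown because the groups of genes described below are defined by them. The si4 target lies at chr19:56733332-56733352 and the si5 target at chr19:56733307-56733327 of GRCh37 (hg19), both on the minus strand, within the protein-coding stretch of the last ZSCAN5A exon, number 6 of 6. Each of the targets matched the genome exactly at 1 place. Target strands are written 5′ to 3′, with the 7 bases that pair with the seed (guide bases 2 to 8) in capitals.
si4 target: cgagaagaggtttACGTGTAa
si5 target: aagctagtcatccACAAGAGa
In the guide strands, which were derived as the reverse complement of the targets and are written with T for U, the seed is in capitals.
si4 guide: tTACACGTaaacctcttctcg
si5 guide: tCTCTTGTggatgactagctt
The guides share neither their seed nor their base order, and no human mature miRNA of the RefSeq set used here has the same bases 2 to 8 as either of them.

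The targeted transcript was at similar levels in both libraries. ZSCAN5A had 0.730 FPKM in the si4 library, 0.713 in that of si5, 2.53 in that of si1 and 2.42 in the scrambled control. The ratio of si5 to si4 was 0.976, with an exact 95% interval (Clopper-Pearson, on fragments estimated from the FPKM, the transcript length and the depth) of 0.738 to 1.298. This interval, like those of the other ratios below, covers counting error alone. ZSCAN5A lay below 1 FPKM in both libraries and is therefore not among the genes compared. For ZSCAN5B the levels were 0.0331 (si4, 6 fragments) and 0.0663 (si5, 17 fragments), and the interval of its ratio, 0.753 to 6.20, included 1. In the si1 library, whose siRNA is directed against ZSCAN5B, its level was 0.0948 from 16 fragments, no lower than the 0.0903 from 15 fragments in the control. After ZSCAN5A the closest match shared by both targets was ZSCAN5DP, with 2 mismatches to either. It is annotated as a pseudogene and by its name corresponds to ZSCAN5D, which the paper counts among the expressed paralogs. By qRT-PCR the paper found ZSCAN5D below the control with both siRNAs, and ZSCAN5B above it with si4. With si1 its qRT-PCR placed ZSCAN5B well below the control, and its Western blot showed less ZSCAN5B protein. The few ZSCAN5B fragments here showed neither the fall with si1 nor the rise with si4. For si5 there were 3 further pseudogene or noncoding matches with 1 or 3 mismatches. None of these matches, ZSCAN5DP included, was analysed here. Of the genes with 4 mismatches, POU2F1, ZNF134 and ZNF473 matched the si4 target and were above the expression limit. None of these was lower with si4 past 1.5-fold. POU2F1 stood at 4.27 FPKM with si4 and 4.52 with si5, ZNF134 at 10.3 and 10.2, and ZNF473 at 8.45 and 9.73. For the si5 target the expressed genes with 4 mismatches included the cell cycle phosphatase CDC25C, at 19.4 with si4 and 16.9 with si5, and BTAF1, at 19.01 and 17.8, which also lay within 1.5-fold.

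Most genes had nearly the same FPKM with both siRNAs. The median log2 ratio was -0.02, the quartiles were -0.13 and 0.10, and 95% of genes lay between -0.43 and 0.50. At 1.5-fold, 200 genes were higher with si5 and 124 were lower, which is 1.56% and 0.969% of the genes compared, or 2.53% together. Beyond 2-fold the counts were 41 (0.320%) and 48 (0.375%), or 0.695% together. The spread depended on the level: 6.72% of 1264 genes whose higher value lay between 1 and 2 FPKM passed 1.5-fold, and 1.06% of 754 genes at 100 FPKM or above. The interquartile range of the log2 ratio was 0.224. It was 0.206 for si1 over si5, 0.215 for si1 over si4, and 0.304 to 0.373 for the pairs with the control. The pair that shares a target thus stood closer together than the pairs with the control, but no closer than either siRNA stood to si1. The si5 library held 1.41 times the fragments of the si4 library, as read from the steps between low FPKM values. Just past the 1.5-fold limit lay PIEZO1, at 8.05 with si4 and 12.1 with si5, and just within it LCOR, at 4.87 and 7.30. At the expression limit, GDPD3 was just inside, at 1.00 with si4 and 0.944 with si5, and ZNF559-ZNF177 just outside, at 0.538 and 0.9996.

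**Figure D1:**
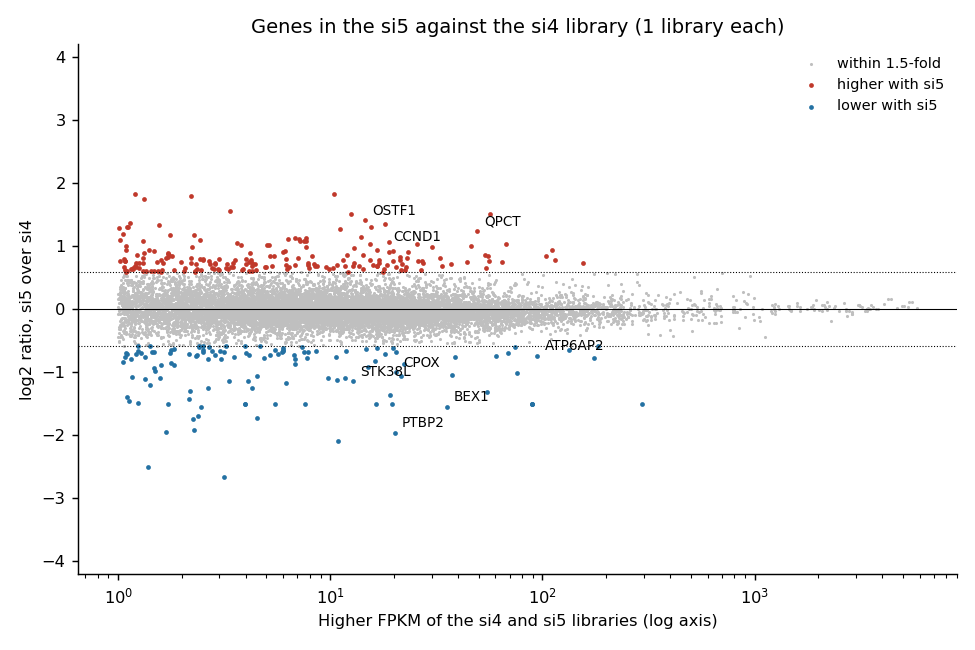
Each point is 1 of the genes compared, placed by the higher of its FPKM values with si4 and si5 (log axis) and by the log2 ratio of si5 over si4, with dotted lines at 1.5-fold. The ratios narrow as the level rises, 200 genes lie above the upper line and 124 below the lower, and 2 rows with a value under 0.001 FPKM in 1 library fall outside the plot.

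Among genes that reached 5 FPKM in either library and had a locus of at least 1000 bases, 84 of 9103 were higher with si5 and 37 were lower past 1.5-fold. The highest ratio belonged to OSTF1, an SH3 and ankyrin repeat protein (chromosome 9, 77703398 to 77762114). OSTF1 stood at 5.52 FPKM with si4, 14.6 with si5, 15.4 with si1 and 13.98 with the scrambled siRNA. The si4 library alone was low, and the ratio of 2.65 had a counting interval of 2.38 to 2.96. Second was CCND1, cyclin D1, which drives entry into S phase (chromosome 11, 69455873 to 69469242). CCND1 stood at 7.09 with si4, 18.0 with si5, 22.4 with si1 and 24.7 with the scrambled siRNA, so that si5 was also below both reference libraries. QPCT, glutaminyl cyclase, had 20.8 with si4 against 49.1, 48.9 and 49.6 in the other libraries, which differed among themselves far less than any of them differed from si4. Others of the 10 highest were C6orf228, SGMS2, SLC7A11, TGFBR3, FNIP2 and JKAMP, with log2 ratios from 1.06 to 1.15. In each of these genes si4 was the lowest of the 4 libraries. In SLC7A11, the cystine transporter, si1 was nearly as low, at 3.99 FPKM against 3.53 with si4, 7.66 with si5 and 6.28 in the control.

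The lowest ratios came from both sides. PTBP2, the neuronal relative of the splicing repressor PTBP1, had the lowest ratio of all genes at 5 FPKM or above with a long locus (chromosome 1, 97187175 to 97280605). It stood at 20.1 FPKM with si4 against 5.17 with si5, 5.20 with si1 and 5.11 in the control. The log2 ratio was -1.96 and the counting interval of the ratio 0.242 to 0.274. BEX1, a small protein expressed mainly in brain, stood at 35.3, 12.03, 15.9 and 11.3, and SYP, the synaptic vesicle protein synaptophysin, at 6.18, 2.75, 3.63 and 2.102. MAPK8IP2, a JNK scaffold of neurons, stood at 10.8, 4.95, 5.12 and 4.54. In these 4 genes si4 was the highest library and si5 lay nearer to the control than to si4. STK38L, a kinase of the NDR family, stood at 12.7 with si4, 5.77 with si5, 12.7 with si1 and 11.9 with the scrambled siRNA, and here si5 alone was low. CPOX, coproporphyrinogen oxidase of the heme pathway, stood at 20.3, 10.1, 18.0 and 20.6, again with si5 alone low. EFHD2, a calcium-binding actin regulator, had 21.4, 10.3, 19.3 and 15.5. STMN3, MGC72080 and SCAMP5 completed the 10 lowest, with log2 ratios of -1.05, -0.87 and -0.87, and in each of them si4 was the highest library.

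**Figure D2:**
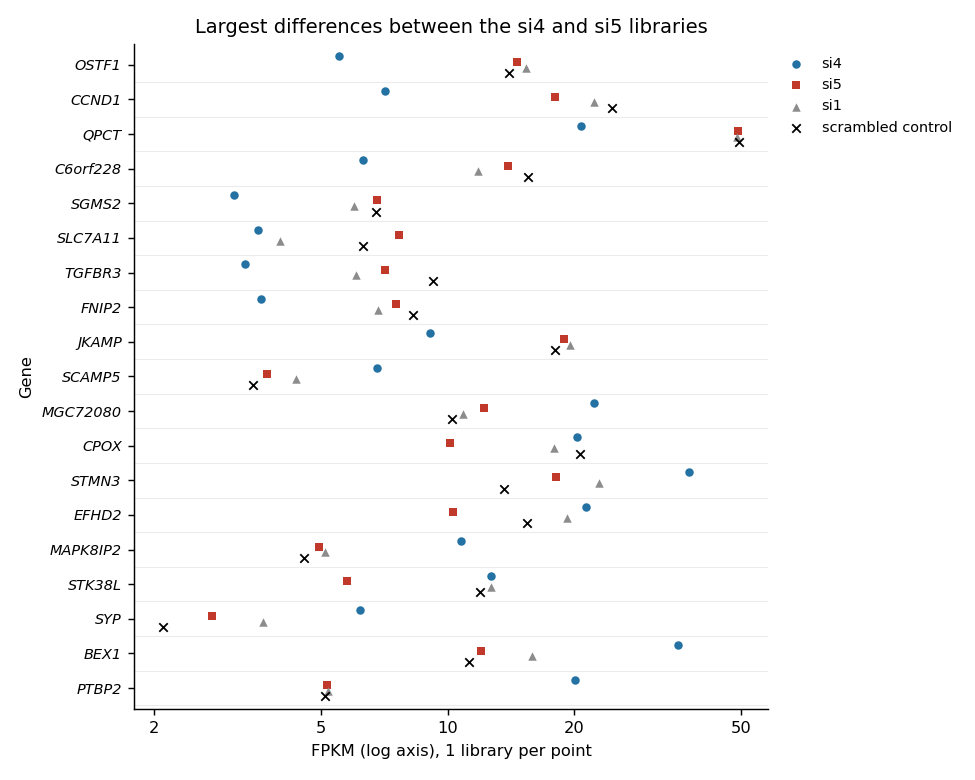
FPKM (log axis) of 9 of the 10 genes with the highest and the 10 with the lowest ratio of si5 over si4, 1 point per library and gene, among loci of at least 1000 bases at 5 FPKM or above. In the upper 9 genes si4 is the lowest point, and in the lower 10 either si4 is the highest or, in STK38L, CPOX and EFHD2, si5 is the lowest.

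Each library was compared with all the others to find genes in which it stood apart. Of the 12788 compared genes above 0 in all 4 libraries, si4 lay more than 1.5-fold below each of the other libraries in 94 (0.735%) and above each of them in 35 (0.274%). For si5 the counts were 28 below (0.219%) and 13 above (0.102%). A 3′ UTR was found for 13 and 7 of these, and for 88 and 27 of the si4 genes. The si5 counts also hold small RNA genes that rest on few fragments, such as SNORA52 and SNORA29. Counted the same way, the control lay above each other library in 117 genes and below in 20, and si1 in 3 and 35. Standing apart was thus as frequent in the control as with si4, and in si1 as with si5. Of the 199 genes higher with si5 that had a value in every library, si1 and the control both lay nearer to si5 in 138 and nearer to si4 in 14. Of 120 genes lower with si5, both lay nearer to si5 in 47 and nearer to si4 in 32. Beside QPCT and OSTF1, the genes furthest below the others with si4 included VAMP3, a vesicle SNARE, at 33.1 FPKM against 67.3 with si5, 68.2 with si1 and 68.6 in the control, and GLCE, a heparan sulfate epimerase, at 7.49 against 15.3, 15.5 and 17.1. Genes low with si5 alone included ATP6AP2, an accessory protein of the vacuolar proton pump, which stood at 94.5 with si4, 56.7 with si5, 93.6 with si1 and 93.5 with the scrambled siRNA. They also included CPT2, which completes fatty acid import into mitochondria, at 11.9, 7.53, 12.6 and 13.7, and TIMP3, an inhibitor of metalloproteinases, at 5.99, 3.83, 6.34 and 7.19. RPL21 was the most abundant transcript that was high with si5 alone, at 93.0, 154.9, 75.2 and 71.9. The human genome holds many near-identical copies of ribosomal protein genes, and how reads were shared among them is not given in the sources used here, so this value is uncertain.

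Genes with a seed site of si4 in their 3′ UTR were lower in the si4 library. A 3′ UTR was found in the GENCODE annotation for 11912 of the genes compared, and 405 of them (3.40%) held the 7-base sequence ACGTGTA at least once on the transcript strand, against 2.92% of all 19604 annotated 3′ UTRs. Their median log2 ratio of si5 over si4 was 0.18, against -0.02 for the 11507 genes without the site. Of the 405 genes, 323 had a ratio above 1. Past 1.5-fold, 52 were higher with si5, or 12.8% (exact 95% interval 9.74% to 16.5%), and 0 were lower. Of all genes with a 3′ UTR, 1.46% were higher and 0.697% lower. The interval of this share, like that of the si5 share below, takes genes as separate trials. All of them come from the same pair of libraries, so it does not cover differences between libraries. The difference was largest in the si4 library: relative to the shared control, the median of the 405 genes was -0.30 with si4, -0.05 with si5 and -0.04 with si1, and of the genes without the site 0.00, -0.02 and 0.00. With 1 site the median of si5 over si4 was 0.17 (387 genes), with 2 sites it was 0.32 (15 genes), and with 3 or more it was 0.19 (3 genes). An 8-base site, in which an A follows the 7 bases, was held by 119 genes, with a median of 0.32 and 27 genes higher with si5 past 1.5-fold. A site in the coding sequence only was held by 421 genes, whose median was 0.07.

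At 5 FPKM or above, the largest ratios among genes with a si4 site included those of OSTF1, SLC7A11, TGFBR3, FNIP2 and JKAMP. The site and the bases before it are shown for OSTF1, TGFBR3 and JKAMP, each as the 21 bases that stand opposite the guide, with the seed match in capitals (GRCh37, transcript strand).
OSTF1, chr9:77761781-77761801, plus strand: gtgtttgagtagaACGTGTAa
TGFBR3, chr1:92146704-92146724, minus strand: ctctacttttataACGTGTAc
JKAMP, chr14:59971116-59971136, plus strand: gaaaagctttaacACGTGTAa
Outside the seed these windows have little in common with the si4 target: 11, 10 and 10 of the 21 bases were the same as in the target, the 7 of the seed match included. JKAMP, a membrane protein that interacts with JNK, stood at 9.09 FPKM with si4 against 18.9 with si5, 19.5 with si1 and 18.0 in the control. TGFBR3, the betaglycan co-receptor of TGF-beta, stood at 3.29, 7.10, 6.05 and 9.26 in the same order. FNIP2, a partner of folliculin, stood at 3.59, 7.55, 6.83 and 8.29. Across all 52 genes the log2 ratio ran from 0.59 to 1.80 with a median of 0.80. All 52 were below the control with si4, 47 of them past 1.5-fold, while with si5 none of the 52 was past 1.5-fold from the control on either side. These 52 were chosen for a ratio past 1.5-fold, so their low si4 values follow in part from that choice. Over all 405 genes with the site, the median relative to the control was -0.30 with si4. Others among them, named here after their values were seen, were MRPL34 of the mitochondrial ribosome, the homologous recombination factor RAD51D, the kinase MAPK8 (JNK1), the histone chaperone ANP32A and STAT6. ANP32A stood at 58.0, 110.8, 107.0 and 95.6, and MRPL34 at 23.0, 45.8, 48.4 and 42.8. STAT6 had the highest ratio of the 52 and 2 sites, with 0.633 FPKM with si4 against 2.197, 1.90 and 2.02.

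For si5 the same relation was seen in the opposite direction and was weaker. The si5 site, ACAAGAG, stood in the 3′ UTR of 1421 genes (11.9%, against 11% of all annotated 3′ UTRs). Their median log2 ratio was -0.05, against -0.01 in the 10491 genes without it. Past 1.5-fold, 30 were lower with si5, or 2.11% (exact 95% interval 1.43% to 3.00%), and 19 were higher, against 0.697% and 1.46% of all genes with a 3′ UTR. The 8-base site was held by 450 genes, of which 21 were lower and 4 higher, with a median of -0.10. The median was lower with more sites, from -0.01 with none to -0.04 with 1 (1218 genes), -0.09 with 2 (176 genes) and -0.17 with 3 or more (27 genes). Relative to the control, the median of the 1421 genes was -0.10 with si5, -0.04 with si4 and -0.05 with si1, and of the genes without the site -0.01, 0.00 and 0.00, so that part of the shift was also present in libraries that had not received si5. As a reference, 2797 genes held the 7-base site of the si1 guide, which neither library had received, and their median ratio of si5 over si4 was 0.00, against -0.02 without that site.

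At 5 FPKM or above, the lowest ratios among genes with a si5 site were those of STK38L, MAPK8IP2, CPOX, PGBD5, CDK6 and SLC39A1. The 3′ UTR of STK38L held 3 sites and that of SLC39A1 2. For STK38L, CPOX and SLC39A1, 1 site each is shown in the same way as above.
STK38L, chr12:27475491-27475511, plus strand: gtgcttattgactACAAGAGg
CPOX, chr3:98298324-98298344, minus strand: cttcaactgtcttACAAGAGa
SLC39A1, chr1:153932387-153932407, minus strand: gggaagtgggcagACAAGAGg
Of the 21 bases, 12, 11 and 8 were the same as in the si5 target. SLC39A1, a zinc importer, stood at 38.7 FPKM with si4, 22.8 with si5, 31.3 with si1 and 31.6 with the scrambled siRNA, so that si5 was lowest and si4 highest. CDK6, a kinase activated by D cyclins, stood at 10.6, 6.26, 7.76 and 14.5, with si1 nearly as low as si5. MAPK8IP2 and PGBD5, a transposase-derived gene of neurons, differ from the others in this set. Their si5 values, 4.95 and 3.94, lay near the control values of 4.54 and 3.76, and the difference came from si4, at 10.8 and 6.81. Of the 30 genes, 27 were below the control with si5, 13 of them past 1.5-fold, and 4 were above the control past 1.5-fold with si4. They too were chosen for their ratio. Over all 1421 genes with the si5 site, the median relative to the control was -0.10 with si5.

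The seed sites were common among genes in which a single siRNA library was low. Of 88 genes with a 3′ UTR in which si4 lay below each other library, 38 (43.2%) held the si4 site, against 3.40% of all genes with a 3′ UTR, and 10 (11.4%) held the si5 site, against 11.9%. Of 13 genes in which si5 lay below each other library, 10 (76.9%) held the si5 site and 0 the si4 site. In the 27 genes in which si4 was above the others, the si4 site was found in 0. The median 3′ UTR was 3306 bases long among genes with a si4 site and 3416 among those with a si5 site, against 1364 over all genes compared, so length was examined as well. Within 3′ UTRs of 1000 to 2000 bases the median log2 ratio was 0.32 for 68 genes with a si4 site and -0.02 for 2613 without, and -0.08 for 232 genes with a si5 site and -0.01 for 2449 without. In 3′ UTRs longer than 4000 bases the medians were 0.11 against 0.00 for si4 and -0.02 against 0.02 for si5. Many differences had no such site. In CCND1, QPCT, SGMS2 and VAMP3, low with si4, neither the 3′ UTR nor the coding sequence of the transcript used held the si4 site, and EFHD2, low with si5, held no si5 site. Of the 174 genes higher with si5 that had a 3′ UTR, 67 (38.5%) held the si4 site in the 3′ UTR or the coding sequence, against 6.93% of all genes with a 3′ UTR. Of the 83 genes lower with si5, 39 (47.0%) held the si5 site in either place, against 26.6% of all.

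**Figure D3:**
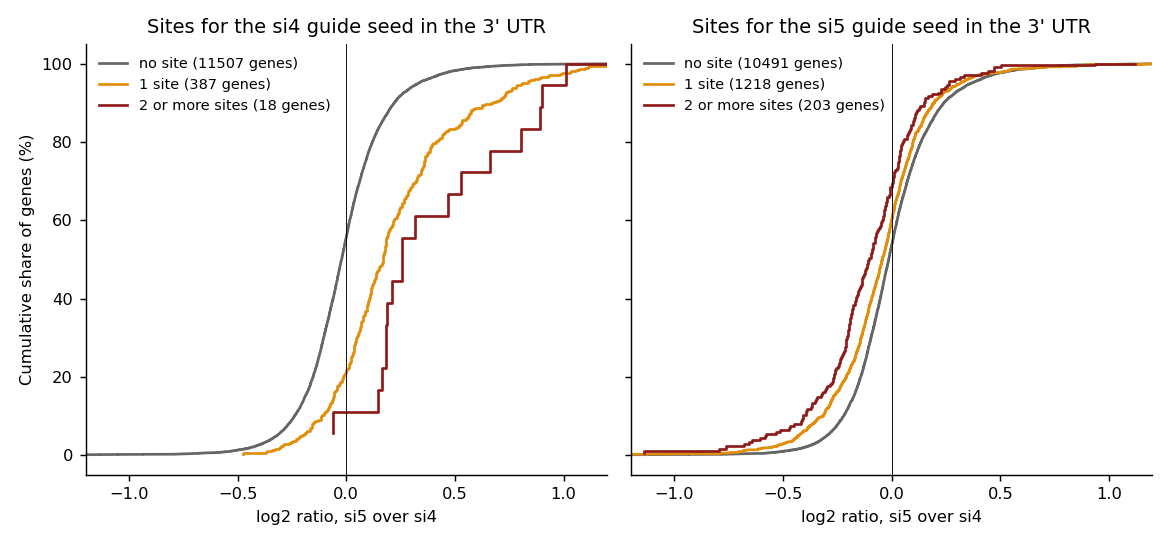
Cumulative share of genes (%) by log2 ratio of si5 over si4, for genes without, with 1 and with 2 or more 7-base seed sites in the 3′ UTR, for the si4 guide (left) and the si5 guide (right). With si4 sites the curves lie to the right of the genes without a site, with medians of 0.17 for 1 site and -0.02 for none, and with si5 sites they lie slightly to the left.

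Several of the genes that were high with si4 are genes of neurons and synapses. A list of 121 such genes was drawn up after these values were seen, with members that did not differ included, and is a description only. Of its 60 genes above the expression limit, 16 were lower with si5 than with si4 past 1.5-fold and 0 were higher, where 0.969% and 1.56% of all genes were. Since the list was drawn from these same values, the count beside that share is not a test. Some of the 16, among them AP3B2, CPLX1, CHGB and RUNDC3A, were below 1 FPKM with si5 and met the limit through si4 alone. In 14 of the 16, si4 lay above each of the other libraries by more than 1.5-fold. The median log2 ratio to the control in the 16 genes was 1.16 with si4, 0.09 with si5 and 0.26 with si1. SNAP25, the SNARE of the presynaptic membrane, stood at 4.07 FPKM with si4, 1.86 with si5, 1.62 with si1 and 2.22 with the scrambled siRNA. STMN3, a microtubule-destabilizing stathmin, stood at 37.6, 18.2, 22.9 and 13.7, with si1 and si5 between si4 and the control. CPLX1, complexin, which regulates vesicle fusion, stood at 2.38, 0.738, 0.983 and 0.495. Of 42 members below the expression limit with more than 3 fragments in both libraries, 14 were lower and 5 higher with si5 past 1.5-fold. The shares given above do not apply to them, because ratios spread more at low levels. Over all rows above 0 in both libraries, without an expression limit, 929 of 18136 were lower and 1213 higher. The share among rows below the limit alone was not computed. Among the 42 members, the secretory granule protein SCG3 stood at 0.822, 0.167, 0.265 and 0.154, and the synaptotagmin SYT4 at 0.462, 0.0540, 0.0475 and 0.0571. The synaptic vesicle protein SV2B lay the other way, at 0.0267, 0.0506, 0.0498 and 0.0429. The median over all 60 genes was -0.07, and other members, named after their values were seen, lay within 1.5-fold. NEFL, the light neurofilament, stood at 38.7 with si4 and 37.0 with si5, MAP2 at 4.68 and 4.70, and UCHL1 at 362.9 and 385.5, while the neuronal enolase ENO2 was lower with si4, at 25.4 against 35.2.

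PTBP1 and REST, which are known to keep neuronal splicing and transcription off in other cells, were lowest with si4. Their ratios of si5 over si4 lay within 1.5-fold. They belong to a list of 15 genes, the PTB proteins, REST and its corepressors, that was also drawn up after values were seen. Of its 11 compared genes, PTBP2 was the only 1 past 1.5-fold, and the median was 0.06. PTBP1 stood at 86.2 FPKM with si4, 116.0 with si5, 125.7 with si1 and 138.5 with the scrambled siRNA, and REST at 5.66, 6.84, 6.80 and 7.97. Relative to the control, the log2 ratio with si4 was -0.68 for PTBP1, past 1.5-fold, and -0.49 for REST, within it. PTBP3 lay between 12.97 and 13.4 in the 4 libraries. Neither PTBP1 nor REST held a si4 site in the 3′ UTR or the coding sequence, and none of the 16 neuronal genes held a si4 site in the 3′ UTR. Whether the levels of PTBP1 and REST have a part in those of the neuronal genes was not tested.

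**Figure D4:**
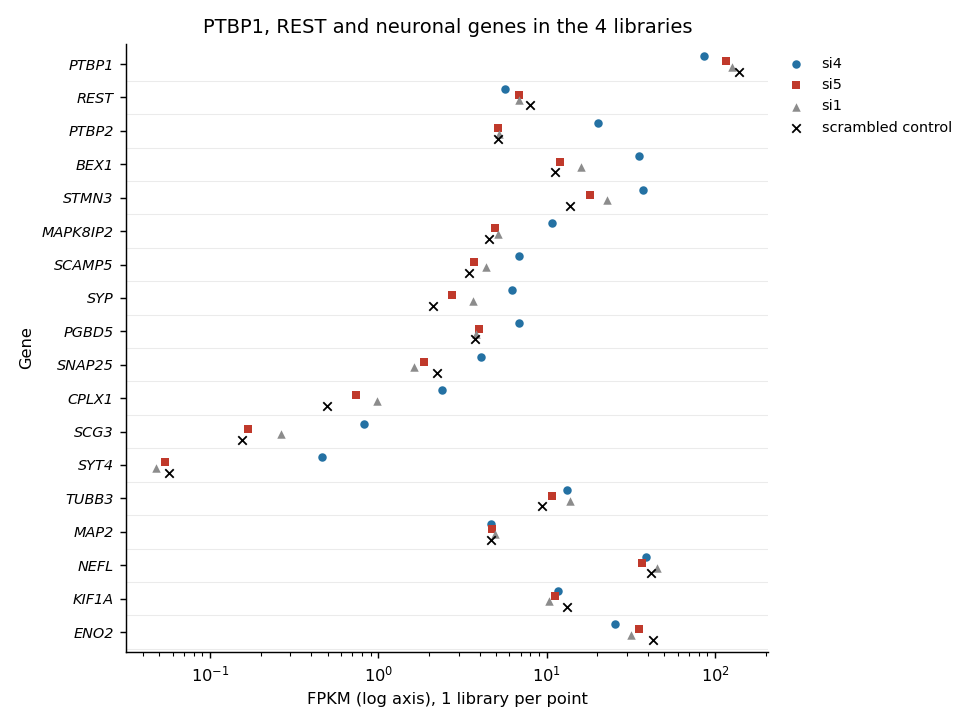
FPKM (log axis) of PTBP1, REST, PTBP2 and neuronal or synaptic genes chosen after their values were seen, 1 point per library. From PTBP2 down to SYT4 the si4 point is the highest, while in TUBB3, MAP2, NEFL and KIF1A it lies among the others, and in PTBP1, REST and ENO2 it is the lowest.

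Gene lists of the processes of interest were then compared, each by its median and counts beside the same for all genes (median -0.02, 45.4% above 0). Of 35 lists with compared genes, 12 had a median at least 0.1 from that of all genes, several of them with few or short genes. Histone cluster genes had the highest median among lists of at least 20 genes, 0.52, with 30 of 32 genes above 0. Past 1.5-fold, 14 were higher with si5 and 1 lower, where 1.56% and 0.969% of all genes were. Some of the 14, among them HIST1H3E, HIST2H3A, HIST3H2BB and HIST1H4D, were below 1 FPKM with si4 and met the limit through si5 alone. The limit thus favours the direction counted in these genes. Most replication-dependent histone mRNAs lack a poly(A) tail, so mRNA libraries hold only part of them. The median relative to the control was -0.48 with si4 and 0.08 with si5. HIST1H2BK, which also gives polyadenylated transcripts, stood at 58.0 FPKM with si4, 104.0 with si5, 70.1 with si1 and 80.7 with the scrambled siRNA, with both siRNAs on opposite sides of the control. HIST1H3H stood at 2.95, 6.34, 4.63 and 4.64. Only HIST2H2BA was lower with si5 past the limit, at 1.57 with si4 and 0.738 with si5. Near-identical copies such as HIST2H2AA3 and HIST2H2AA4 carried the same values and are not independent.

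Ribosome biogenesis genes were slightly lower with si5 than with si4, with a median of -0.13 and 109 of 122 below 0. Relative to the control their median was 0.24 with si4 and 0.14 with si5, so both lay above it. The 1 past 1.5-fold was SDAD1, at 16.6 FPKM with si4 and 10.9 with si5, whose 3′ UTR held a si5 site. Mitochondrial ribosomal proteins had a median of -0.10, with 58 of 78 below 0, and medians relative to the control of 0.26 with si4 and 0.14 with si5. MRPL34, which held a si4 site, was the only member past the limit and lay in the other direction. tRNA modification and processing genes had a median of -0.10 with 0 of 72 past the limit, and medians relative to the control of 0.21 with si4 and 0.10 with si5. M phase genes had a median of 0.09, with 101 of 133 above 0 and 0 past the limit, from FZR1 at -0.24 to PRC1 at 0.35. Genes of the integrated stress and unfolded protein response had a median of 0.17, with 42 of 59 above 0. Past the limit were SLC7A11 and PPP1R15B, a regulatory subunit of the eIF2alpha phosphatase, at 11.7 with si4 and 17.7 with si5. Extracellular matrix and adhesion genes had a median of 0.08. ITGA5, the fibronectin receptor subunit, stood at 11.9, 21.2, 17.8 and 22.3, and LAMA1, a laminin chain, at 2.89, 4.45, 4.44 and 5.93, both lowest with si4.

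Cholesterol synthesis genes had a median of -0.13, with 23 of 35 below 0. The sterol isomerase EBP was lower with si5 past the limit, at 74.3 FPKM with si4 and 49.0 with si5. Cytosolic ribosomal proteins had a median of 0.01, with RPL21 the only 1 of 85 past the limit, oxidative phosphorylation genes -0.01, SCAN domain genes other than the ZSCAN5 family 0.01 with 0 of 34 past the limit, and other zinc finger genes -0.01 with 1 of 430, ZNF827. The interferon and RNA sensing list, which double-stranded RNA can activate, had a median of 0.07, and BST2 was its only member past the limit, at 2.31 with si4 and 4.02 with si5. The RNA silencing machinery had a median of 0.00, with FMR1, the fragile X protein, past the limit at 22.5 with si4 against 37.0, 38.3 and 41.0. FMR1 held a si4 site. In 26 lists with at least 20 genes with a 3′ UTR, the highest member held a si4 site in 8, among them POLR3-associated GTF3C3, ribosome biogenesis factor WDR36, the Wnt receptor FZD5 and HOXA5, and the lowest member held a si4 site in 0. The lowest member held a si5 site in 9, among them EBP, and the highest held one in 2. Over all genes with a 3′ UTR the shares with a site were 3.40% for si4 and 11.9% for si5, and the members here are the extremes of their lists.

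**Figure D5:**
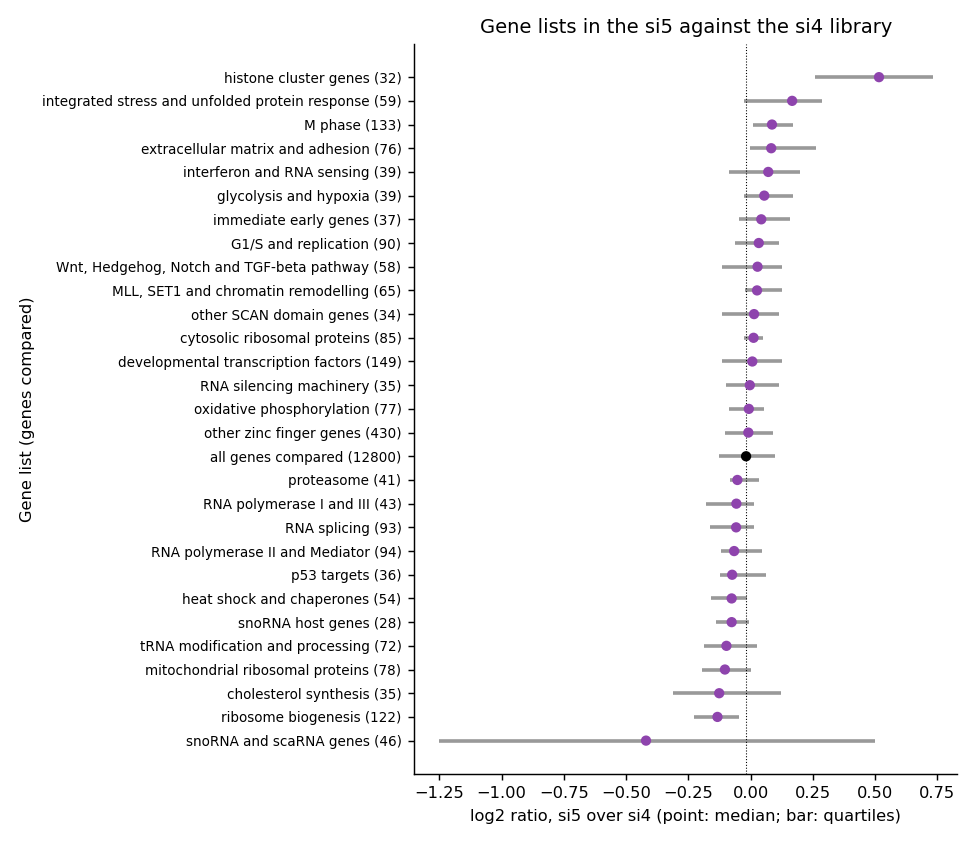
Median (point) and quartiles (bar) of the log2 ratio of si5 over si4 in each list with at least 20 compared genes, with all genes in black and its median as a dotted line. Histone cluster genes lie highest, with a median of 0.52, and the snoRNA and scaRNA list is the widest.

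Small RNA genes had the most extreme ratios, and few fragments behind them. Of 46 snoRNA and scaRNA genes compared, 10 were higher and 18 lower with si5 past 1.5-fold, and of 17 microRNA genes 2 and 6, where 1.56% and 0.969% of all genes were. Many values stepped by single fragments: SNORA29 stood at 2.93 FPKM from 1 fragment with si4 and 10.4 from 5 with si5, and SNORA52 at 10.9 from 3 and 2.57 from 1. The 3 rows of MIR1244 carried identical values from 2 and 1 fragments. SNORA7A and SNORA17 were listed below 0.001 FPKM in 1 library, and no fold is given for these genes. A further 38 rows were listed at 0 with si4 and at 1 FPKM or above with si5, and 25 the reverse, with 36 and 20 of them at loci under 1000 bases. RMRP, the RNA of RNase MRP, rested on 30 fragments with si4 and 32 with si5, at 6.83 and 5.15 FPKM, and RPPH1, the RNA of RNase P, on 14 and 18. The counting intervals of si5 over si4, 0.444 to 1.28 for RMRP and 0.427 to 1.97 for RPPH1, both included 1.

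The cells carried the markers of their line in both libraries. Of 20 neural and renal genes known from HEK-293 cells, 18 were at 1 FPKM or above, and the summed FPKM of all 20 was 1191 with si4 and 1103 with si5. The 14 blood cell markers summed to 4.26 FPKM with si4, 2.44 with si5, 3.81 with si1 and 2.202 with the scrambled siRNA, with HBB and HBG1 at 0 in all. The alpha globin genes HBA1 and HBA2, near-identical copies, made up most of it, and HBA1 stood at 2.17 with si4 and 0.811 with si5. Of 17 trophoblast markers 3 were at 1 FPKM or above, and all 17 summed to 23.1 with si4 and 29.2 with si5. Of 12 fibroblast markers 3 were, and all 12 summed to 17.0 and 21.5. The part of these markers in any other result was not tested. Transcript length and GC content moved with the ratio only slightly. The median went from -0.04 in the shortest to 0.01 in the longest class of 5 classes by transcript length, and from 0.01 in the lowest to -0.04 in the highest class by GC content.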

How the data were processed

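RNA was measured in 4 libraries of HEK-293 cells. Labels and methods name different stranded mRNA library kits, and the kit used cannot be told apart here. The authors aligned reads to hg19 and deposited 1 table of FPKM values per gene row. The submitters' processing notes name CASAVA 1.8.2, Trimmomatic 0.30, TopHat2 2.1.0 and Cufflinks 2.2.1. FPKM is scaled to library and transcript length and keeps no read totals. Values were used as deposited, and the table holds 0 other columns of per-sample values. Read counts were not used here.

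Ratios of si5 over si4 were taken without a pseudocount in rows with at least 1 FPKM in either library and above 0 in both. Each siRNA has 1 library and hence no replicate, and no p-value was computed. Genes were counted past 1.5-fold. Fragments behind low values were read as the smallest whole numbers, up to 40, in whose proportions the 4 values of a row stood with a tolerance of 0.05%, which was found for 70.1% of 1745 genes under 0.1 FPKM. Other fragments were estimated from FPKM, annotated length and a depth of approximately 56900000 (si4) and 80500000 (si5) fragments. Values resting on 3 fragments or fewer give no fold. Exact Clopper-Pearson 95% intervals of ratios cover counting error alone. Those of seed-site shares take genes as separate trials, although all come from the same pair of libraries.

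Locus coordinates are those of the deposited table, with 1 added to the start, which the table counts from 0. Transcript sequences were 1 transcript per gene of GENCODE 44 lifted to GRCh37, whose names and positions matched 96.2% of the compared rows, 1192 of them through an older symbol. siRNA sequences came from the study's supplement. Seed sites were exact matches on the transcript strand and are descriptions, not shown binding sites.

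The gene set and the 36 lists were chosen with earlier results of these data known. Of these lists, the ZSCAN5 family had no row above the expression limit. Named genes were the ZSCAN5 genes, RMRP and RPPH1, the closest matches to the targets, the 10 highest and 10 lowest ratios among rows at 5 FPKM or above with a locus of at least 1000 bases and 5 of each direction among shorter loci, up to 4 members per list and direction past 1.5-fold or else the highest and lowest, up to 6 genes per siRNA with a seed site, and up to 8 genes per direction in which 1 siRNA library stood apart. Genes and 2 lists named outside this rule are marked as chosen after values were seen. Some genes that the rule names are not reported here. Alternatives covered scaling, expression and fold limits, pseudocounts, rows at 0, shared symbols, locus length, seed type and a correction for length and GC content. The steps were tested on simulated data. Python 3.11.15, NumPy 2.4.6, pandas 2.3.3, SciPy 1.17.1 and matplotlib 3.10.9 were used.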

Additional observations from a re-analysis of the deposited data

Results flagged for a closer look

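In 13 compared rows the siRNAs lay past 1.5-fold on opposite sides of the control they share, each from a single library, and the difference was not tested. Of these, 8 rows (small RNA genes and KRTAP19-1) rested on 3 fragments or fewer in at least 1 library and are not described, which leaves 5 genes. C17orf61-PLSCR3 had a log2 ratio of si5 over si4 of 1.56, from 1.14 FPKM with si4, 3.36 with si5 and 2.00 in the control. It is a read-through annotation that overlaps PLSCR3, which stood the other way round, at 3.15 with si4 and 0.496 with si5, so that reads of the 2 rows cannot be told apart with certainty. INO80B-WBP1, also a read-through annotation, had a log2 ratio of -1.73, from 4.49 with si4, 1.36 with si5 and 2.54 in the control. NCOR1P1, a pseudogene, had -1.3, from 2.19, 0.891 and 1.46. SCARNA13 had -1.94, from 1.67, 0.436 and 0.711, which correspond to approximately 26, 10 and 10 fragments. SPG20OS, an antisense gene, had -1.46, from 1.13, 0.410 and 0.626.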

How the results depend on the processing

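No paired analysis was possible because each group holds 1 library, and for the same reason no replicate could be left out. Of 102 alternative values, 83 stayed within their margin (1.5 times for counts and spreads, the exact 95% interval for shares, 0.1 for list medians) and 19 moved beyond it. Changes of direction were not scored separately. With 6-base si5 sites, 43 genes were lower with si5 and 49 higher past 1.5-fold, against 30 and 19 with 7-base sites. The count of 324 genes past 1.5-fold moved to 151 with a limit of 5 FPKM, 2142 without an expression limit, 167 with a pseudocount of 1 FPKM and 89 at 2-fold, where 46.1% rather than 61.7% were higher with si5. The share of si4 site genes lower with si4 (12.8%) moved to 22.7% for 8-base sites, 6.38% for 6-base sites, 3.68% for sites in the coding sequence and 8.07% in the whole transcript. The share of si5 site genes lower with si5 (2.11%) moved to 4.67%, 1.02%, 0.69% and 1.21% in the same order. Genes in which si4 stood apart, 129 in all, were 23 at 2-fold and 68 at 5 FPKM or above, and those in which si5 did, 41 in all, were 5 and 21. The neuronal genes past 1.5-fold, 16 in all, were 9 at 5 FPKM or above. The median of the histone genes, 0.52, was 0.35 with a pseudocount of 1 FPKM and 0.39 with a limit of 0.5 FPKM. The alternatives for the neuronal list and the omission of genes with sites of both guides, which gave 13.9% and 2.26%, were chosen after seeing the data. Depth limits short and weakly expressed genes most.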
